A study of Mus musculus with 12 samples.

Results

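The comparison described here set mouse bone marrow cells carrying both mutants, SETBP1 (D868N) and NRAS (G12D), against cells carrying empty vectors, across 10993 genes tested of 19910 listed. Its members are 6 of the series' 12 RNA-seq libraries, 3 of each kind, chosen by the column labels of the gene count table. In all 12 libraries the cells came from bone marrow of female C57BL/6J mice aged 6 to 10 weeks, and in each group they received a pair of retroviral vectors made in 293T17 cells, a human embryonic kidney line used for packaging. The control cells received EMPTY + EMPTY and the double-mutant cells SETBP1 (D868N) + NRAS (G12D). Cells with EMPTY + NRAS (G12D), called NRAS alone below, and with SETBP1 (D868N) + EMPTY, called SETBP1 alone, served only to show where the double-mutant cells differed from a single mutant. Every group therefore received 2 vectors, and the titles of the libraries call all of them murine leukemia cells, the empty-vector cells included. The promoter of the vectors, the time in culture, any selection of transduced cells and the number of mice are not given in the sources used here. Nor do the labels say whether replicates were separate mice or transductions, so p-values measure only the spread between these libraries, which may be technical.

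RAS proteins are small GTPases that, when bound to GTP, activate RAF kinases, which activate MEK and then the ERK MAP kinases. The G12D change keeps NRAS in its GTP-bound, active form. ERK raises transcription of immediate-early genes and also of its own inhibitors, the dual-specificity phosphatases (Dusp) and Sprouty proteins, whose mRNA is used as a readout of pathway output. SETBP1 is a nuclear protein that binds SET and DNA; D868N lies in the stretch that marks the protein for degradation, and mutations there stabilise it and recur in myeloid neoplasms. The series title asks whether mutant SETBP1 adds to MAPK pathway activation by NRAS.

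The 6 libraries held 7085894 to 8591360 counts with empty vectors and 7462440 to 8021676 with both mutants. The 10 most abundant genes took 7.15 to 7.25% of counts with empty vectors and 7.74 to 8.66% with both. On the first principal component of the 6 libraries, which held 83.8% of the variance, the 3 libraries of each kind sat together and apart from the other 3. Reads on the mouse genes of the same names followed the labels. Nras had 82, 93 and 84.5 normalised CPM (counts scaled to a common library total, with TMM scaling) with empty vectors. It had 1537, 1599.9 and 1539 with both mutants, 18-fold higher. Reads on mouse Setbp1 were few: 0, 0 and 0 with empty vectors and 13, 17 and 11 with both, and 7, 7 and 5 with SETBP1 alone. Whether the introduced sequences are mouse or human is not given in the sources used here, so it is not known whether either value measures the vector's product. Library SETBP1 alone replicate 3 stood apart from its group (11835 genes detected, correlation with its group 0.946 and 0.953); it is in neither group compared here, but it enters the shared estimate of the spread.

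Cells with both mutants had a widely changed transcriptome. By the edgeR quasi-likelihood test, 4462 of 10993 genes (40.6%) differed at an adjusted p under 0.05, referred to below as called. Of these, 2282 (20.8% of genes tested) rose and 2180 (19.8%) fell. Counts of list members given below are to be read beside these shares. In 4434 of the 4462 the 3 libraries of one kind lay wholly above the other 3, as they did in 6727 of all genes tested (61.2%). Groups being apart thus went with nearly every call. Where it is stated below for called genes, it adds no further support. Most changes were small: the middle of the distribution ran from a log2 change of -0.39 at the lower quartile to 0.30 at the upper quartile, with a median of -0.01. At 2-fold or more, 598 genes rose and 865 fell; at 4-fold or more, 271 rose and 308 fell; at 16-fold or more, 93 rose and 43 fell; at 32-fold or more, 60 rose and 15 fell. Moderate falls thus outnumbered moderate rises, and the extreme changes were mostly rises. Falls prevailed among genes of low abundance, with 229 rises and 488 falls in the bin of lowest CPM when genes were put in 5 bins of equal size, and rises among abundant genes, with 853 and 355 in the bin of highest CPM. The split depends on scaling: by library size alone, without a correction for composition, the median log2 change of all genes was -0.13 and 1656 genes rose while 2908 fell. With upper-quartile scaling 1933 rose and 2524 fell.

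**Figure D1:**
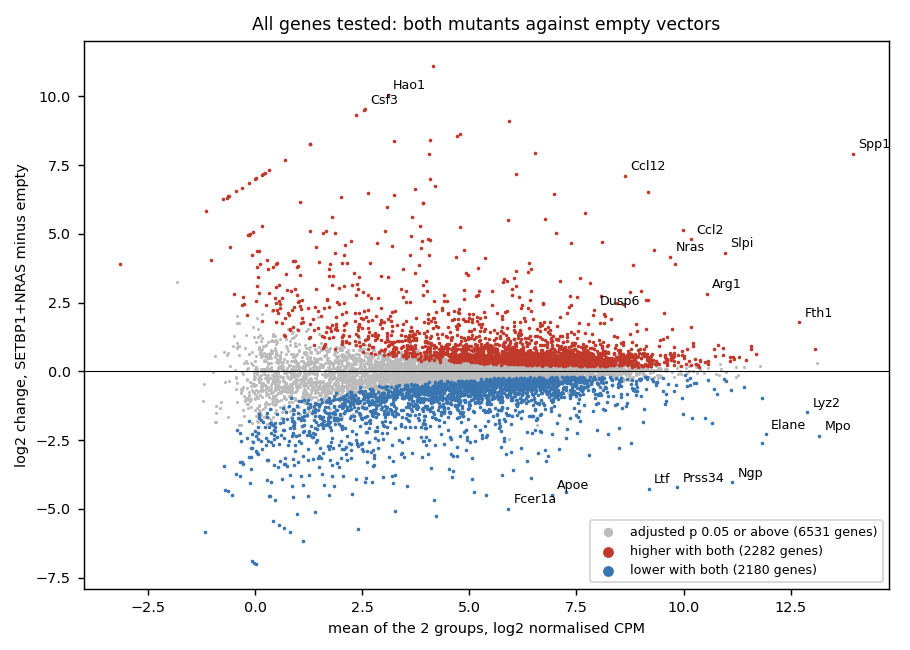
Each point is a gene tested, with the mean of the empty-vector and double-mutant groups on the x axis (log2 normalised CPM) and the log2 change, both mutants minus empty vectors, on the y axis; red genes rose and blue genes fell at an adjusted p under 0.05, grey did not pass. The 2282 red points reach higher than the 2180 blue points reach low, and Spp1 stands out as both abundant and strongly raised.

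In mRNA level, genes used as readouts of MAPK signalling rose in near unison; the activity of the pathway itself was not measured. Of 9 genes tested in the MAPK output list, 8 rose and 0 fell, with a median log2 change of 3.01 against -0.01 over all genes. Dusp6, which encodes a phosphatase specific for ERK, had 79.9, 87.5 and 87.7 normalised CPM with empty vectors and 404, 376 and 418 with both mutants, and rose 4.7-fold (log2 change 2.23 ± 0.08 (SE), adjusted p = 1.98e-10). Ccnd1, encoding cyclin D1, had 11, 14 and 9.72 with empty vectors and 124, 119.9 and 118 with both (10.4-fold higher, adjusted p = 9.32e-09). Phlda1, a gene induced by growth factor signalling, had 4.2, 5.21 and 4.86 and 64.6, 42.2 and 61.4 (11.8-fold higher, adjusted p = 3.69e-06). For all 3 genes the lowest double-mutant library was above the highest empty-vector library. The ETS factors Etv4 and Etv5, the ERK feedback inhibitor Spry4 and the ephrin receptor Epha2 rose as well, with log2 changes of 3.72, 1.90, 3.14 and 2.91, and so did the phosphatase Dusp4, from 0.996, 0.508 and 2.02 to 11.7, 8.7 and 7.94 normalised CPM. Spry2, at 1.82 and 2.8 normalised CPM, did not pass (log2 change 0.61, adjusted p = 0.213).

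The wider set of RAS and MAPK inhibitors moved the same way: 13 of 20 rose and 1 fell (median 1.00). Rasal1, a RAS GTPase-activating protein, went from 0.111, 0.381 and 0 to 1.68, 3.97 and 2.29 normalised CPM. The next largest log2 changes were in Errfi1 (2.56), Dusp5 (1.89), Spred1 (1.78), Dusp7 (1.74) and Dusp3 (1.74): an inhibitor of EGF receptor signalling, a nuclear ERK phosphatase, an inhibitor of RAF activation, and a pair of further MAPK phosphatases. The gene that fell was Rasa3, another GTPase-activating protein, from 164, 147 and 169 to 103, 98.8 and 99.7 normalised CPM (log2 change -0.67). Nf1, encoding the RAS inhibitor neurofibromin, was at 11.7 ± 2.34 with empty vectors and 12.4 ± 1.42 with both (mean ± SD, n = 3; adjusted p = 0.813).

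Immediate-early transcription factors rose in 16 of 23 cases and fell in 2 (median 0.92). Fosl1, an AP-1 subunit whose transcription and protein stability depend on ERK, went from 3.1, 2.92 and 2.02 to 42.8, 53.9 and 49 normalised CPM, 17.9-fold higher (log2 change 4.16 ± 0.19 (SE), adjusted p = 1.38e-09). Egr1, a zinc-finger factor, went from 6.97, 10.2 and 13.4 to 92, 110.1 and 104, 10.1-fold higher. Its relative Egr3 had 2 reads in the 3 empty-vector libraries together and 176 with both mutants, a ratio of 95.6-fold (95% counting interval 26.1 to 795). The AP-1 subunits Jun (1.79), Junb (1.36) and Fos (0.90) rose less, as did the stress factor Atf3 (1.61) and Myc (0.36), values being log2 changes. The factors that fell were Klf4, from 13.9, 14.7 and 9.45 to 2.94, 4.99 and 2.96, and the antiproliferative Btg2, from 50.9, 53.8 and 49.1 to 24.6, 32.1 and 27.6. Groups did not overlap for any gene named in this paragraph, as held for 4434 of the 4462 genes called.

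Transcripts of the kinases and adaptors of the pathway itself did not move as the MAPK output list did. In the list from RAS to ERK, 5 of 29 rose (17.2%), Nras among them, 9 fell (31.0%) and 15 did not pass (median -0.14). The shares over all genes tested were 20.8% that rose and 19.8% that fell. Hras went from 59.4, 54.6 and 50.7 to 87.6, 86.8 and 89.7 normalised CPM, with a log2 change of 0.68. MEK1 (Map2k1, 0.48) and the exchange factor Rasgrp3 (2.21) also rose. Falls came in the kinases Braf (-0.74) and Mapk3 (-0.66), in the exchange factors Rasgrp1 (-1.87) and Rasgrp2 (-0.97) and in the RAS relative Mras (-3.08).

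Promoters of 5 strongly raised genes are shown because each holds a binding motif of a factor family that ERK or stress signalling acts on. Picked in this way, these promoters cannot show whether the motif has a part in the rise, which was not tested. They are the 250 bases before the gene's start in RefSeq, build GRCm38.p6, read in the direction of the gene, with the motif in capitals. The AP-1 element, TGANTCA, starts 63 bases before the gene in Mmp10 (chr9:7502092-7502341, plus strand), 35 in Mmp13 (chr9:7272264-7272513, plus strand) and 69 in Plaur (chr7:24462233-24462482, plus strand). Areg (chr5:91139349-91139598, plus strand) holds a cyclic AMP response element, TGACGTCA, 61 bases before its start. Slc7a11 (chr3:50443614-50443863, minus strand) holds 2 copies of the ATF4 element, TGATGCAA, 66 and 47 bases before its start.
Mmp10: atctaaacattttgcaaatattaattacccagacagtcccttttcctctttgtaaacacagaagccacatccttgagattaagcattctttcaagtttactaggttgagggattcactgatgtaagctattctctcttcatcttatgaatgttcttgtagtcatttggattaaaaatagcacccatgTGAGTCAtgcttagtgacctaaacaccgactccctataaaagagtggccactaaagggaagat
Mmp13: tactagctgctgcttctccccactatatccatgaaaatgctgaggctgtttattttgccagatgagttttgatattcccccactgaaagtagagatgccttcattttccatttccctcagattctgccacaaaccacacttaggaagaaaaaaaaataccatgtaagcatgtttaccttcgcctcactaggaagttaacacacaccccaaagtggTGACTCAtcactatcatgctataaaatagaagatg
Plaur: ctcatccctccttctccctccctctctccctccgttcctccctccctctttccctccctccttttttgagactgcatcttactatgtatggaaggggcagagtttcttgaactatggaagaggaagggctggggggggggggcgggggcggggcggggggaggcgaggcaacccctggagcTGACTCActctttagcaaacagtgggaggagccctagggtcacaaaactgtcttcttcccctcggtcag
Areg: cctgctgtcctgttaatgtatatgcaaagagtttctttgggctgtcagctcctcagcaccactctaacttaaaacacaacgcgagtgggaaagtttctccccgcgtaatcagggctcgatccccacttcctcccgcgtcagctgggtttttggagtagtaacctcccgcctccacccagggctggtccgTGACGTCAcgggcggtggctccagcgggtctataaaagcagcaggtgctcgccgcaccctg
Slc7a11: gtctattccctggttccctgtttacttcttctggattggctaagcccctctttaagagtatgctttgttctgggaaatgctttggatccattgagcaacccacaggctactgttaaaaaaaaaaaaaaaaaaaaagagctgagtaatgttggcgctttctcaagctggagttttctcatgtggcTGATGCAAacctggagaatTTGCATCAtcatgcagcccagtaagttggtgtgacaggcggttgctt
Windows from 250 bases before to 50 after a gene's start were searched on both strands. The AP-1 element stood in 12.9% of 248 promoter windows of genes called at least 4-fold higher and in 9.29% of 323 windows of genes called at least 4-fold lower. It stood in 5.31% of 11293 windows of all genes tested and in 7.81% of 32851 windows in the whole table, and in 6.35% and 6.23% of windows of all genes that rose and that fell. The cyclic AMP element stood in 3.53% of windows of genes that rose, 1.85% of those that fell and 3.09% of those tested. The E-box CACGTG, bound by MYC and other helix-loop-helix factors, stood in 11.6%, 8.17% and 10.0%, and in 8.87% and 6.5% of windows of genes called at least 4-fold higher and lower. The ATF4 element was rare throughout, at 0.573%, 1.03% and 0.673%, as were the sterol element TCACNCCAC (0.837%, 1.12% and 1.14%) and the serum response element (1.41%, 1.33% and 1.3%). The interferon-stimulated element (GAAA, 2 bases of any kind, GAAA) stood in 2.73%, 3.48% and 3.26%. Promoters were found for 8836 of the 10993 genes tested. These shares are a description with no test, and a match is not a site shown to be bound.

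Genes for secreted growth factors and cytokines rose more often than they fell. Of 32 tested of 45 listed, 19 rose and 4 fell (median 1.19). Spp1, which encodes osteopontin, a secreted adhesive phosphoprotein of macrophages and bone, went from 113, 203 and 76.4 to 32473, 27628 and 34085 normalised CPM, 240.5-fold higher (log2 change 7.91 ± 0.45 (SE), adjusted p = 1.26e-08). Csf3, the granulocyte colony-stimulating factor, had no read with empty vectors and 71, 50 and 142 reads with both mutants, at least 31.7-fold higher against the level of 3 reads in each empty-vector library. Areg, which encodes the EGF receptor ligand amphiregulin, likewise went from no read to 41, 32 and 36 (at least 13.1-fold higher). Another EGF receptor ligand, Hbegf, went from 2.66, 2.41 and 2.7 to 62.1, 47.9 and 58.1 normalised CPM (21.5-fold higher, adjusted p = 1.49e-09). In each of these 4 genes the groups were apart. Inflammatory cytokines rose with them: Tnf from 14, 9.02 and 9.45 to 78.5, 71.4 and 96.7, Osm from 42.4, 43.3 and 40.8 to 130.4, 118 and 132, and Il1a from 3.87, 3.56 and 3.51 to 15.2, 7.55 and 18. The interleukin-1 receptor antagonist Il1rn went from 31.9, 32.4 and 31.3 to 168, 136 and 229. The lymphotoxin gene Lta had a ratio of 99.9-fold (95% counting interval 17.5 to 3989). Pdgfa (3.42), Inhba (2.21), Gdf15 (1.94) and Igf1 (1.91) also rose, in log2 change. The 4 members that fell included Tnfsf13b (-2.71) and Vegfa (-0.78) and Pdgfc, whose 34 reads with empty vectors became 1 with both, a ratio of 31.3-fold (95% counting interval 5.25 to 1272). Il3 and Thpo had no read in the 6 libraries.

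Among chemokine genes, ligands rose and several receptors fell. Of 26 chemokine and receptor genes tested, 15 rose and 4 fell (median 1.00). Ccl2, the main attractant of monocytes, went from 74.3, 98.5 and 67.2 to 2309, 2086 and 2325 normalised CPM, 28-fold higher (log2 change 4.81 ± 0.31 (SE), adjusted p = 4.31e-08). Its neighbours Ccl7 and Ccl12 went from 51.1, 68.3 and 49 to 2048, 1871 and 2007 and from 6.2, 6.48 and 4.18 to 823, 649 and 896. Ccl4 went from 10.7, 11.8 and 14.6 to 1198, 959 and 1278, 92.9-fold higher, and Ccl3 from 20.2, 19.9 and 19.8 to 538, 467 and 578. For each of these 5 ligands the lowest double-mutant library was far above the highest empty-vector library. The neutrophil attractants Cxcl2 and Cxcl3 rose by 5.24 and 5.02 on the log2 scale. Ccl genes include close relatives, and how the counting treated reads that fit several of them is not given in the sources used here. Among receptors, Ccr1 rose (log2 change 1.00), while Cxcr4, which holds cells in the marrow, fell from 35.5, 34.5 and 32.1 to 13.4, 12.9 and 10.2, and Ccr7, which guides cells to lymph nodes, fell as well (-2.04). Ccr2, the receptor for Ccl2, was at 426 ± 52.7 and 463 ± 8.68 and did not pass (adjusted p = 0.312).

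**Figure D2:**
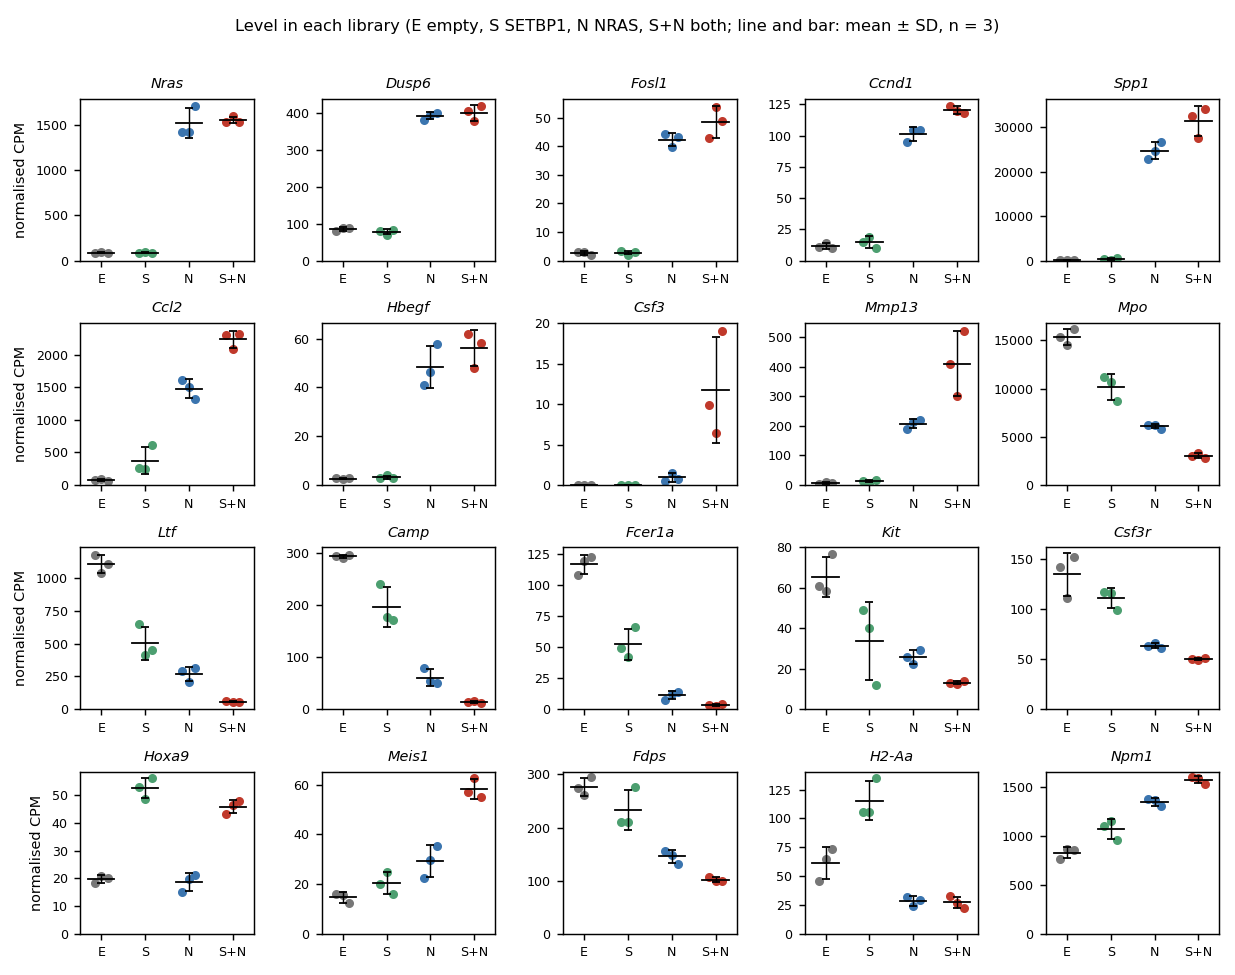
Normalised CPM of 20 genes in each library of the 4 groups (points, n = 3), with the mean (line) and SD (bar); axes start at 0 and differ between panels. Double-mutant libraries are far above empty-vector libraries for Nras, Dusp6, Fosl1, Ccnd1, Spp1, Ccl2, Hbegf, Csf3 and Mmp13, and far below for Mpo, Ltf, Camp, Fcer1a, Kit, Csf3r and Fdps.

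Cytokine receptors fell more often than they rose. Of 35 tested, 16 fell and 5 rose (median -0.44; by library size alone or with upper-quartile scaling 18 fell and 3 rose, and 18 fell and 10 rose without SETBP1 alone replicate 3). Kit, the stem cell factor receptor of progenitors and mast cells, went from 61, 58.3 and 76.8 to 13, 12.5 and 14 normalised CPM (4.95-fold lower, adjusted p = 0.000169). Csf3r, the receptor for the product of Csf3, went from 142, 111 and 152 to 50.2, 49.7 and 51.4 (2.68-fold lower, adjusted p = 3.71e-07), so that ligand and receptor moved in opposite directions. The interferon-gamma receptor Ifngr1 went from 418, 394 and 427 to 162, 153 and 156 and the interleukin-2 receptor chain Il2ra from 5.2, 7.75 and 7.42 to 0.699, 0.256 and 0.135. Il7r, the interleukin-7 receptor of lymphoid progenitors, rose from 3.1, 3.81 and 4.32 to 28.1, 28.9 and 28.1. The other rises included the interleukin-17 receptor, Il17ra (0.85). Csf1r, the macrophage colony-stimulating factor receptor, did not pass (331 ± 4.85 and 339 ± 16.9, adjusted p = 0.853), nor did the shared chain Csf2rb (adjusted p = 0.124), which did by library size alone, with upper-quartile scaling or with only the 6 libraries compared. Signalling genes downstream of the receptors were mixed: of 23 JAK-STAT genes 5 rose (21.7%) and 9 fell (39.1%), with a median of -0.33. Over all genes tested 20.8% rose and 19.8% fell. By library size alone 3 and 11 JAK-STAT genes rose and fell, and with upper-quartile scaling 3 and 10 did. Within them the kinase gene Pim3 went from 73, 69.6 and 67.1 to 481, 459 and 459 and its relative Pim1 from 61, 43.3 and 44.8 to 10.9, 12 and 10.9, in opposite directions. Of 15 NF-kB genes 8 rose and 2 fell (median 0.43; 5 and 3 by library size alone); the rises were led by the feedback and adaptor genes Traf1 (2.16), Tnip3 (1.72) and Nfkbiz (1.39), while the subunit genes Rela (0.10), Relb (0.05) and Nfkb1 (-0.17) did not pass, though Nfkb1 did by library size alone or with only the 6 libraries compared.

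Genes for proteases of the extracellular space rose in 13 of 27 cases and fell in 4 (median 0.59; 15 and 7 without SETBP1 alone replicate 3). Mmp13, a collagenase, went from 4.54, 11.2 and 7.02 to 409, 302 and 523 normalised CPM (54.8-fold higher, adjusted p = 6.49e-09). Mmp10, a stromelysin outside that list, had no read with empty vectors and 52, 50 and 127 with both mutants (at least 27.5-fold higher). Mmp12, the macrophage elastase, went from 43, 88.6 and 38.2 to 1219, 1094 and 1316, and the membrane protease Adam8 from 112, 114 and 109 to 1628, 1666 and 1688. The spread among double-mutant libraries was wide for Mmp10 and Mmp13, yet their lowest double-mutant values were above every empty-vector value. Genes of the plasminogen activator system rose: the urokinase gene Plau (11-fold), its receptor Plaur (from 101, 104 and 108 to 794, 675 and 819, 7.31-fold) and the inhibitor gene Serpinb2 (46.2-fold). The metalloprotease inhibitors split: Timp1 had a ratio of 38.7-fold (95% counting interval 12.9 to 191) and Timp3 fell 9.86-fold. Mmp9, a gelatinase stored by neutrophils, did not pass (74.3 ± 7.98 and 75.6 ± 9.83, adjusted p = 0.945).

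Adhesion genes changed in both directions, with 14 of 31 higher and 9 lower (median 0.20). The laminin-binding integrin Itga3 had 3 reads with empty vectors and 276 with both, a ratio of 99.9-fold (95% counting interval 33.8 to 487). Cd44, the hyaluronan receptor, went from 185, 197 and 159 to 396, 381 and 350.5 normalised CPM, and Itgax, Alcam and Selp rose by 2.31, 1.38 and 1.35 on the log2 scale. The falls included the platelet integrin Itga2b (from 109, 77.3 and 81.4 to 22, 29.9 and 23.9), Vcam1 (-2.55), the VLA-4 chain Itga4 (-0.75) and the selectin ligand Selplg (-0.54).

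Neutrophil granule genes fell steeply. In bulk RNA, fewer cells of a type and less RNA per cell cannot be told apart, and this holds for every cell-type list below. Of 12 genes for primary granule proteins, made at the promyelocyte stage, 10 fell and 0 rose (median -1.32); their summed level went from 29227 to 31659 normalised CPM to 8939 to 9221. Mpo, encoding myeloperoxidase, had 15357, 14546 and 16137 with empty vectors and 3028, 3286 and 2799 with both mutants (5.05-fold lower, log2 change -2.34 ± 0.10 (SE), adjusted p = 9.87e-10). Elane, encoding neutrophil elastase, had 6184, 6077 and 7046 and 1333, 1354 and 1243 (4.91-fold lower, adjusted p = 2.16e-09). Proteinase 3 (Prtn3), Nkg7 and Prss57 fell, with log2 changes of -1.71, -3.03 and -3.87. The members that did not pass were the granule proteoglycan Srgn and the protease activator Ctsc (adjusted p = 0.626 and 0.71). The empty-vector cells, labelled as bone marrow, thus had many reads on genes of granule-forming progenitors, and no double-mutant library reached the empty-vector range of the 5 genes that fell by name.

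Genes of late neutrophils fell further, except for stefin genes. In the list of 23, 14 fell and 6 rose (median -1.44), and the summed level went from 17718 to 19489 to 3451 to 4281 normalised CPM. Lactoferrin (Ltf), a secondary granule protein, had 1175, 1038 and 1101 with empty vectors and 62.1, 55.4 and 53.5 with both (19.4-fold lower, log2 change -4.28 ± 0.19 (SE), adjusted p = 1.09e-09). The antimicrobial peptide gene Camp had 294, 291 and 297 and 14.7, 15.1 and 12.1 (21-fold lower), and Ngp had 4236, 4028 and 4492 and 276, 266 and 233 (16.5-fold lower). The alarmins S100a8 and S100a9 fell 3.26-fold and 3.66-fold, and Lcn2, Chil3 and Pglyrp1 fell 3.55-fold, 6.09-fold and 9.68-fold. Cxcr2 did not pass (adjusted p = 0.758). The 6 rises in this list were all stefins, small inhibitors of cysteine cathepsins: BC100530 went from 0.221, 0.254 and 0.135 to 114, 104 and 146, and Stfa1 had a ratio of 426-fold (95% counting interval 145 to 2068). Gm5483, Stfa2 and Stfa2l1 rose by 7.94, 6.13 and 4.58 on the log2 scale, Stfa3 had a ratio of 268-fold (95% counting interval 91.2 to 1300.3), and the related Gm5416 went from no read to 262, 224 and 305. Stefin genes are close copies, so the split of reads between them is uncertain.

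Transcripts of mast cells and basophils fell: 11 of 18 were lower and 2 higher (median -1.23). Fcer1a, the alpha chain of the IgE receptor, had 108, 119 and 123 normalised CPM with empty vectors and 3.78, 2.56 and 4.57 with both mutants (32.1-fold lower, log2 change -5.00 ± 0.25 (SE), adjusted p = 3.80e-09). Prss34, a basophil protease, had 1777, 1782 and 1714 and 107, 59.4 and 117 (18.6-fold lower), and Mcpt8, another basophil protease, had 626, 661 and 603 and 95.4, 64.8 and 110.1 (7.0-fold lower). The mast cell protease Cpa3, the IgE receptor beta chain Ms4a2 and the transcription factor Gata2 fell, with log2 changes of -2.97, -3.78 and -1.08. The 2 rises were Hpgds and Slc6a4, the second lost without empty replicate 2 or 3 or double-mutant replicate 3. Hdc, which makes histamine, did not pass (adjusted p = 0.643). Mcpt1 and Mrgprb1 had no read in the 6 libraries. Of 6 eosinophil genes 4 fell (median -2.51), Siglecf among them (log2 change -2.54); the granule genes Epx and Prg2 went from 132, 51.2 and 126 to 39.7, 11.3 and 5.11 and from 169, 112 and 174 to 65.3, 35.2 and 16.7, a difference that did not pass (adjusted p = 0.0658 and 0.0737). Both did pass with no filter on low counts, with only the 6 libraries compared and without SETBP1 alone replicate 2 or 3, and Epx also with limma-voom or without double-mutant replicate 1.

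Megakaryocyte and platelet genes fell in 14 of 19 cases and rose in 3 (median -1.82). Their summed level overlapped between the groups, at 3226 to 3697 normalised CPM with empty vectors and 2858 to 3268 with both. Thbs1, encoding thrombospondin, held most of it and did not pass (2566 ± 221 and 2344 ± 197, adjusted p = 0.626). The receptor subunits Gp9 and Gp5 and the adhesive protein Vwf had log2 changes of -3.16, -2.24 and -2.52, and Fli1, a factor of that lineage, of -0.92. Selp, encoding P-selectin, rose (1.35). Of 15 erythroid genes 5 were tested, 3 fell and 1 rose (median -1.26). The fall included Gata1, from 26.6, 24.1 and 22.5 to 5.04, 5.76 and 3.23 normalised CPM, and Klf1, from 5.2, 7.37 and 8.1 to 0.839, 0.384 and 0.807. Globin genes and Slc4a1 had no read in any of the 6 libraries; the globin genes are near-identical pairs, for which reads may not be assigned. Few lymphoid markers were detected: 3 of 13 B-lymphoid and 3 of 16 T-lymphoid and NK genes passed the filter on low counts. Pax5, Rag1, Cd3e, Cd8a and Bcl11b had no read in these 6 libraries, nor had the stromal Col3a1, Pdgfra, Cxcl12, Dcn and Lum. Of the B-lymphoid genes tested Blnk rose, though not without empty replicate 1, and Cd79b fell (median 0.86). Among T-lymphoid and NK genes Il7r rose (median 0.35), and of 7 stromal and endothelial genes 3 rose and 1 fell (median 0.80). Their summed level, 567 to 641 normalised CPM with empty vectors and 1056 to 1136 with both, was mostly Vim and Pecam1, which blood cells also express (477 and 898, and 106 and 185, on average). Of 9 dendritic cell genes 3 rose and 1 fell (median 0.36).

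Monocyte and macrophage genes divided. Of 31 tested, 10 rose, 8 fell and 13 did not pass (median 0.22; 9 and 10 higher and lower by library size alone). Cd14, the lipopolysaccharide co-receptor, had 38.2, 34.3 and 25.9 normalised CPM with empty vectors and 343, 287 and 418 with both mutants (10.6-fold higher, adjusted p = 2.55e-07). Cd36, a scavenger receptor that takes up oxidised lipoprotein, had 7.19, 15.6 and 7.96 and 159, 159 and 156 (15.4-fold higher). The scavenger and mannose receptors Msr1 and Mrc1 rose by 1.76 and 1.95 on the log2 scale. Against these, Lyz2, encoding lysozyme, had 11548, 11855 and 9969 and 3986, 3429.7 and 4440.1 (2.81-fold lower); its near copy Lyz1 can share its reads. Apoe, the apolipoprotein of macrophages, had 229, 260.3 and 209.8 and 11.3, 13.1 and 6.73 (22.4-fold lower, adjusted p = 4.57e-07), and the coagulation factor subunit F13a1 had 798, 743 and 714 and 117, 151 and 103 (6.05-fold lower). The inflammatory monocyte marker Ly6c2 fell less (-0.56), and Csf1r, Adgre1 and Irf8 did not pass. Adgre1 and Irf8 did when only the 6 libraries compared were fitted, and Adgre1 also by library size alone or without SETBP1 alone replicate 3. Only some of the rises and falls are named here. The adhesion gene Vcam1, given above, is in this list too and fell. The summed level of the list went from 16772 to 19200 normalised CPM with empty vectors to 9956 to 11134 with both.

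Pattern recognition receptors rose in 9 of 26 cases and fell in 4 (median 0.05, which was below 0 by library size alone and with upper-quartile scaling). The C-type lectin receptors Clec4d, Clec4e and Clec5a rose by 3.11, 2.13 and 1.77 on the log2 scale, whereas the inhibitory lectin Clec12a and the bacterial sensors Tlr2 and Nod1 fell (-1.17, -1.58 and -1.12). Genes of MHC class II presentation fell in 9 of 13 cases (median -1.05). They included H2-Aa, one of the chains that bind peptide (from 45.8, 64.6 and 73.4 to 32.6, 26.2 and 22.7 normalised CPM, 2.25-fold lower, adjusted p = 0.000206), and the peptide loaders H2-DMa and H2-DMb2 (-1.21 and -1.71). The costimulatory gene Cd40 rose (1.55), and Cd74, the invariant chain, did not pass (adjusted p = 0.463). MHC class I genes fell more weakly, 6 of 18 with 0 rises (median -0.23; 0 rises and 12 falls by library size alone, and 10 falls with upper-quartile scaling or without SETBP1 alone replicate 3), H2-K1 and the peptide transporter Tap2 among them (log2 changes -0.51 and -0.68).

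The interferon response did not rise as a whole. Of 42 genes 5 rose (11.9%), 12 fell (28.6%) and 25 did not pass (median -0.13), beside 20.8% and 19.8% over all genes tested. Without SETBP1 alone replicate 3, 10 rose and 15 fell. The falls were led by guanylate-binding proteins, which interferon-gamma induces (log2 changes of Gbp5 (-1.85), Gbp4 (-1.51) and Gbp2 (-1.08)), and by Ifi27l2a (-1.57). The rises included the chemokine Cxcl10, the ISG15-removing enzyme Usp18 and the membrane protein Ifitm3 (log2 changes 1.87, 1.01 and 0.67).

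Transcription factors of the blood lineages fell in 17 (42.5%) and rose in 9 (22.5%) of 40 cases (median -0.18). The share that rose was near the 20.8% over all genes tested, where 19.8% fell. Factors of granulocyte formation were among the falls: Cebpa went from 104, 90.5 and 111 to 44.2, 50.2 and 50.1 normalised CPM, Cebpe from 59.8, 55.5 and 60.7 to 27, 21.8 and 29.7, and Gfi1 from 168, 160.0 and 190.1 to 72, 64.5 and 69. For these 3 genes no double-mutant library reached the lowest empty-vector library. Ets1 fell 5.92-fold and Runx1, a founding factor of blood cells, 2.12-fold. Ets2, an ETS factor activated by ERK, went from 17.3, 20.1 and 23.9 to 152, 151 and 160.0 (7.58-fold higher, adjusted p = 2.68e-09), and Klf2, Runx2 and Id2 rose by 2.20, 1.17 and 1.29 on the log2 scale. Cebpb did not pass (adjusted p = 0.493), though it did with only the 6 libraries compared.

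Genes of stem and progenitor cells fell in 9 (37.5%) and rose in 4 (16.7%) of 24 cases (median -0.31), beside 19.8% and 20.8% over all genes tested. The rises were Cd34 (from 92.5, 107 and 95.5 to 283, 283 and 259 normalised CPM), Lmo2 (from 155, 169 and 173 to 312, 327 and 334), Meis1 and the endothelial protein C receptor Procr (7.34-fold higher). Myb, a factor that keeps progenitors dividing, went from 321, 322 and 329 to 160.1, 170.1 and 168 (1.95-fold lower), and Thy1 fell too (log2 change -1.51). In a list of genes reported as targets or partners of SETBP1, 6 of 11 rose and 2 fell (median 0.91); Myb and Runx1 were the falls. Hoxa9, a homeobox factor of primitive myeloid cells, went from 18.3, 21 and 20.1 to 43.2, 46.5 and 47.9 (2.32-fold higher, adjusted p = 7.44e-06). Its partner Meis1 went from 16.2, 15.5 and 12.3 to 56.9, 62.7 and 55 (3.96-fold higher, adjusted p = 1.92e-06), Hoxa10 from 4.31, 4.57 and 2.83 to 12.2, 15.2 and 14.7, and the phosphatase cofactor Eya1 from 2.32, 2.16 and 1.75 to 7.13, 12.8 and 8.88. Each of these 4 genes was higher in each double-mutant library than in each empty-vector library. Set, whose protein SETBP1 binds, rose by 0.61 on the log2 scale, and Pbx3 by 0.91, though not without empty replicate 3 or double-mutant replicate 1, and Hoxa7 (0.57), Hoxa5 (1.10) and Mecom (0.05) did not pass, though Hoxa5 did without double-mutant replicate 3.

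Genes for making ribosomes, proteasomes and nucleotides rose modestly and together. Of 31 ribosome biogenesis genes 24 rose and 0 fell (median 0.53); by library size alone 20 rose and 0 fell. The nucleolar protein genes Npm1 and Ncl went from 768, 865 and 854 to 1599, 1592 and 1529 and from 1382, 1416 and 1380.4 to 2477, 2623 and 2378 normalised CPM (1.9-fold and 1.79-fold higher). Of 31 proteasome subunits 27 rose and 0 fell (median 0.37), or 18 and 0 by library size alone. Of 74 cytosolic ribosomal protein genes 27 rose and 0 fell (median 0.25), a count that came down to 6 and 0 by library size alone and to 14 and 0 with upper-quartile scaling, and went up to 44 and 0 without SETBP1 alone replicate 3. Purine, pyrimidine and pentose phosphate genes rose in 16 of 27 cases and fell in 5 (median 0.31). By library size alone 11 rose and 6 fell, and with upper-quartile scaling 13 and 5 did. The 5 that fell with TMM scaling were all enzymes of the pentose phosphate pathway: Pgls (-0.78), Taldo1 (-0.72), Tkt (-0.48), Pgd (-0.42) and G6pdx (-0.29). Heat shock and stress genes rose in 10 of 18 cases and fell in 2 (median 0.48). The chaperonin gene Hspd1 rose by 0.81 on the log2 scale, and Xbp1, the factor of the unfolded protein response, fell from 1035, 1048 and 1095 to 453, 463 and 466. Respiratory chain subunits were nearly flat, with 1 of 79 higher and 9 lower (median -0.04), or 1 and 21 by library size alone, 1 and 14 with upper-quartile scaling and 6 and 13 without SETBP1 alone replicate 3.

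Glycolysis genes rose in 11 of 23 cases and fell in 3 (median 0.25; 11 and 5 by library size alone, 12 and 6 without SETBP1 alone replicate 3). The glucose transporter Slc2a1 went from 112, 115 and 102 to 273, 238 and 249 normalised CPM (2.31-fold higher, adjusted p = 6.36e-05), Pkm from 2205, 2271 and 2167 to 3865, 3784 and 4068, and Ldha from 2599, 2707 and 2533 to 4058, 3919 and 4113. The lactate dehydrogenase isoform Ldhb went the other way, 8.62-fold lower. No cholesterol synthesis gene rose and 15 of 24 fell (median -0.40). Fdps, which makes the prenyl chain that also anchors RAS, went from 274, 261 and 295 to 107, 99.2 and 100.1 (2.71-fold lower, adjusted p = 2.01e-07), and Sc5d and Hmgcs1 fell, with log2 changes of -1.03 and -0.87. The regulator Srebf2 did not pass (adjusted p = 0.104), though it did when only the 6 libraries compared were fitted or without SETBP1 alone replicate 3. Fatty acid and lipid genes fell in 11 (40.7%) and rose in 5 (18.5%) of 27 cases (median -0.17), beside 19.8% and 20.8% over all genes tested. Lipoprotein lipase (Lpl) rose 6.03-fold and the lipid droplet protein Plin2 3.33-fold, while the endothelial lipase Lipg and the triglyceride enzyme Dgat1 fell 8.97-fold and 2.65-fold.

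Slc7a11, the cystine transporter whose promoter is printed above, went from 11.2, 10.7 and 10.9 to 103, 109.7 and 106 normalised CPM (9.72-fold higher, adjusted p = 9.03e-11). It was far ahead of the ATF4 response list it belongs to, in which 11 of 30 rose and 3 fell (median 0.14), or 6 and 4 by library size alone. Atf4 itself and Asns did not pass (log2 changes -0.09 and 0.01). The heme oxygenase gene Hmox1 went from 109.5, 147 and 107 to 969.8, 885 and 889 and the ferritin heavy chain Fth1 from 2787, 3388 and 2768 to 10111, 9767 and 11075. These belong to an NRF2 antioxidant list in which 5 of 25 rose and 9 fell, Gpx3 most (7.24-fold lower), with a median of 0.07 that turned to -0.06 by library size alone. Without SETBP1 alone replicate 3, 8 and 11 rose and fell.

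Cell cycle lists had medians near 0. Of 19 G1 genes 7 rose and 1 fell (median 0.18; 8 and 3 without SETBP1 alone replicate 3). They included the inhibitors Cdkn2b (from 0.111, 0.635 and 0.27 to 10.1, 9.34 and 8.07 normalised CPM) and Cdkn1a (from 235, 263 and 242 to 522, 476 and 509) beside Ccne1 (0.66), so that genes which drive and genes which restrain the cycle were both higher. DNA replication genes rose in 7 (21.2%) and fell in 2 (6.06%) of 33 cases, beside 20.8% and 19.8% over all genes tested. Their median of 0.06 turned to -0.06 by library size alone, with 4 rises and 5 falls. With upper-quartile scaling 4 rose and 3 fell. Mitosis genes rose in 8 and fell in 2 of 27 (median 0.13; 4 and 6 by library size alone and 9 and 5 without SETBP1 alone replicate 3). In the BCL2 family, 6 of 15 rose and 2 fell (median 0.27). The survival gene Bcl2l1 went from 48.5, 46.6 and 47.5 to 168, 162 and 169.7 (3.5-fold higher, adjusted p = 7.26e-10) and Bcl2 rose 1.85-fold, while the death-promoting Bmf had 58 reads with empty vectors and 2 with both, a ratio of 26.7-fold (95% counting interval 7.07 to 226). Mcl1 did not pass (adjusted p = 0.0833), though it did with only the 6 libraries compared or without SETBP1 alone replicate 3.

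**Figure D3:**
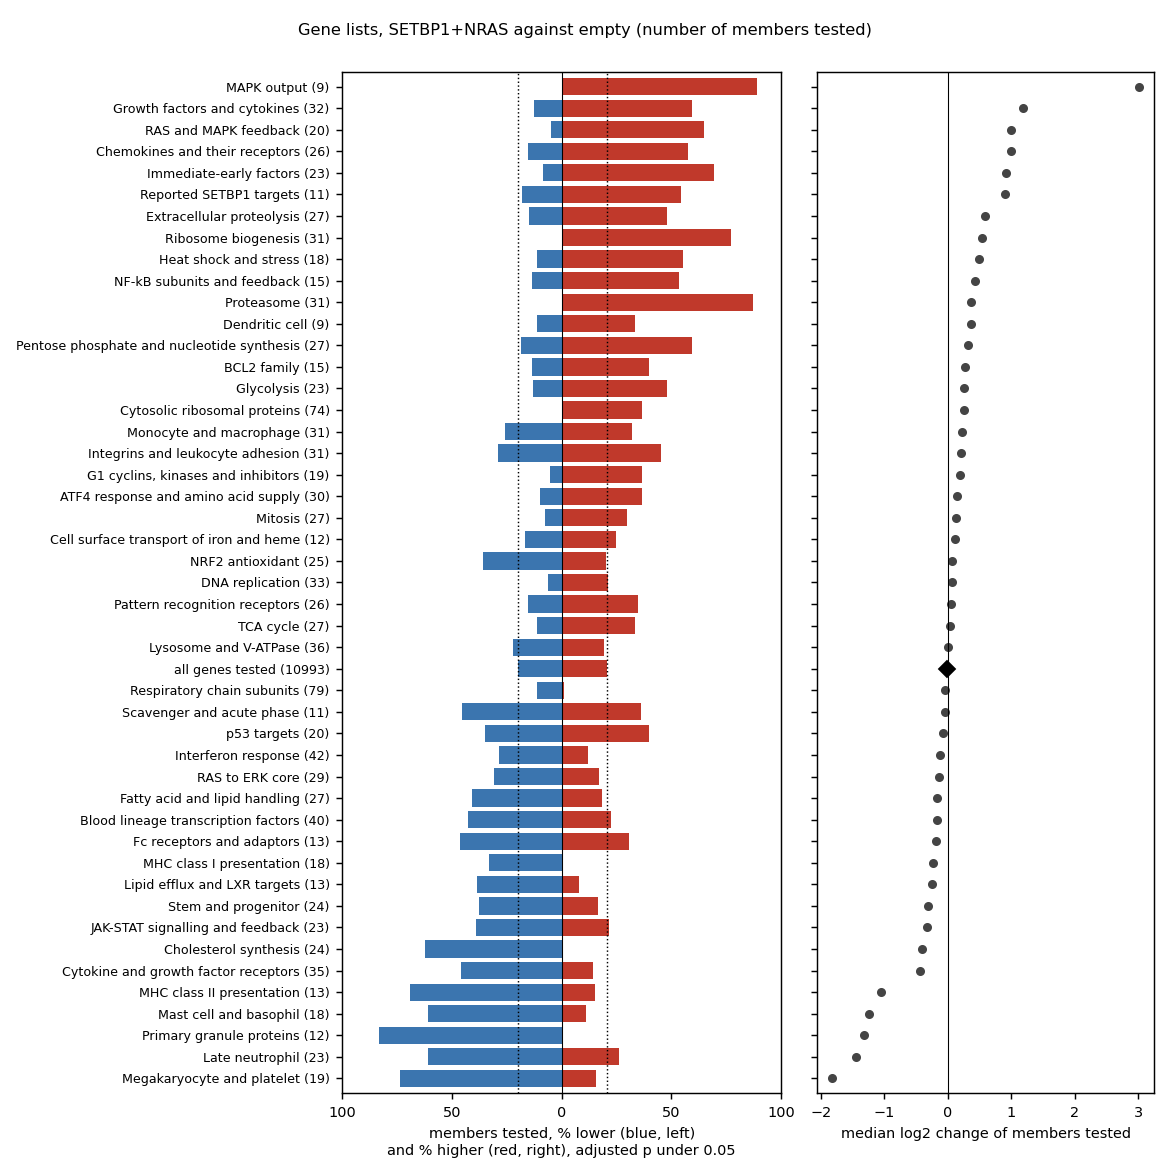
For each gene list with 9 or more members tested (number in brackets) and for all genes tested, the left panel gives the percent of members that fell (blue) or rose (red), and the right panel the median log2 change, both mutants minus empty vectors; dotted lines mark the shares over all genes. MAPK output lies at the top with a median of 3.01 and megakaryocyte genes at the bottom with -1.82; all genes tested (diamond) lie at -0.01.

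Some of the largest single changes were in genes outside these lists. Hao1, a peroxisomal hydroxyacid oxidase usually made in liver, had no read with empty vectors and 104, 111 and 167 reads with both mutants (at least 45.8-fold higher). Ptprn, a secretory vesicle member of the receptor-type tyrosine phosphatase family, went from no read to 93, 85 and 83 (at least 31.4-fold higher). Rgs16, a regulator of G protein signalling, and Tm4sf1, a tetraspan membrane protein, had ratios of 443-fold (95% counting interval 151 to 2154) and 411-fold (95% counting interval 113 to 3401), and the catenin Ctnnd2 one of 455-fold (95% counting interval 81.2 to 18017). By the gain in CPM, Spp1 came first, and the protease inhibitor Slpi (from 182, 194 and 201 to 3795, 3389 and 4277 normalised CPM) and the arginase Arg1 (from 345, 455 and 308 to 2914, 2623 and 2267) were also among the 10 largest. The cytoskeletal gene Actb, often taken as constant, rose too, from 5878, 6703 and 6065 to 11418, 10839.6 and 10685. Among the deepest falls were the retinal dehydrogenase Aldh1a3 (from 9.62, 12.3 and 9.18 to 0, 0.384 and 0.135), Dennd2a (from 41.3, 28.8 and 38.6 to 0.839, 1.28 and 0.673), the progesterone receptor Pgr (from 19.7, 19.4 and 17 to 0.42, 0.768 and 0.404) and the inhibitory lectin Siglecg (from 34.4, 35.9 and 33.9 to 1.82, 0.896 and 1.35). The acute-phase gene Lrg1 and the chitinase relative Chil1 fell 22.5-fold and 21-fold.

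Tested directly against NRAS alone, the double-mutant cells differed in 210 genes (1.91% of 10993), 58 higher and 152 lower; 1283 had an unadjusted p under 0.05. The count depended strongly on single libraries: without SETBP1 alone replicate 3, which is in neither group but enters the shared estimate of the spread, 836 genes differed (357 higher and 479 lower), and without double-mutant replicate 1, 93 did. In the MAPK output list 0 of 9 rose and 0 fell (median 0.25) by the edgeR test, 0 had an unadjusted p under 0.05, and 0 passed with DESeq2 or limma-voom. When only the 6 libraries with NRAS alone and with both were fitted, 2 passed, Ccnd1 and Dusp4. Dusp6 had 380.3, 394 and 399 normalised CPM with NRAS alone and 404, 376 and 418 with both (log2 change 0.03 ± 0.08 (SE), adjusted p = 0.961). Spp1 had 22875, 24703 and 26698 and 32473, 27628 and 34085 (log2 change 0.34 ± 0.33 (SE), adjusted p = 0.832). Dusp6 levels overlapped between these groups, and the 3 double-mutant libraries lay above the 3 with NRAS alone for Spp1, but neither difference passed. That of Spp1 did pass with only the 6 libraries compared. Of 11 reported SETBP1 targets 5 were higher with both and 0 lower (median 0.99). Hoxa9 had 14.9, 19.6 and 21.3 with NRAS alone, 43.2, 46.5 and 47.9 with both and 53, 48.6 and 56.1 with SETBP1 alone; the difference from NRAS alone was 2.46-fold (adjusted p = 0.000147). Meis1, Hoxa7, Hoxa10 and Eya1 were higher by 0.99, 1.33, 1.64 and 2.38 on the log2 scale. Hoxa9 and Eya1 passed at 0.05 under each of the alternatives run, whereas the call was lost for Hoxa10 without any of the 6 libraries compared, for Hoxa7 without any of them but double-mutant replicate 3, and for Meis1 without NRAS alone replicate 2 or double-mutant replicate 2. Csf3 stood out among cytokines, at 4, 11 and 6 reads with NRAS alone and 71, 50 and 142 with both (log2 change 3.66 ± 0.54 (SE), adjusted p = 0.00871), a call lost without NRAS alone replicate 3.

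Granule genes were lower with both mutants than with NRAS alone, in 7 of 12 primary granule genes (median -0.56) and 12 of 23 late neutrophil genes (median -0.94), with 0 and 0 higher. List counts in this paragraph are to be read beside all 10993 genes tested against NRAS alone. Of those, 58 were higher and 152 lower, 1.91% together. Mpo had 6271, 6257 and 5837 normalised CPM with NRAS alone and 3028, 3286 and 2799 with both (2.02-fold lower, adjusted p = 8.63e-05), and its levels stepped down from empty vectors (15347 on average) over SETBP1 alone (10201) and NRAS alone (6122) to both (3038). Ltf had 292, 208 and 311 and 62.1, 55.4 and 53.5 (4.74-fold lower, adjusted p = 3.19e-05), and Camp had 79.3, 54 and 49.9 and 14.7, 15.1 and 12.1 (4.37-fold lower). Cxcr2, which did not pass against empty vectors, was lower than with NRAS alone (from 34.1, 43.2 and 48.2 to 18.3, 16.9 and 20.3, adjusted p = 0.0132). The 3 complement genes C1qa, C1qb and C1qc of macrophages also differed from NRAS alone (log2 changes 1.34, 1.24 and 1.32) without passing against empty vectors (log2 changes 0.22, 0.41 and 0.41), where C1qb and C1qc did pass with only the 6 libraries compared or without SETBP1 alone replicate 3. In the monocyte and macrophage list 9 of 31 were higher and 3 lower (median 0.49; 16 and 3 without SETBP1 alone replicate 3), Cd36, Mrc1 and Gpnmb among the higher ones (log2 changes 1.16, 1.13 and 1.59). Outside the lists, Pmp22, Adgrl4 and the oxysterol enzyme Ch25h rose against NRAS alone (log2 changes 1.5, 1.57 and 1.52). Saa3 and Wfdc17 also rose against NRAS alone (log2 changes 1.79 and 1.74) but did not pass against empty vectors (log2 changes -0.04 and 0.90). Wfdc17 did pass there with DESeq2, with no filter on low counts, with only the 6 libraries compared and without empty replicate 2, double-mutant replicate 2 or SETBP1 alone replicate 3. The falls of Retnlg, Ngp, Pglyrp1 and Gata1 against NRAS alone were, on the log2 scale, -2.71, -2.09, -1.73 and -1.80. Mpo, Ltf, Camp, Retnlg, Ngp, Pglyrp1, Gata1, Gpnmb and Adgrl4 passed at 0.05 under each of the alternatives run. Leaving out a single library ended the call of Cxcr2, Cd36, Mrc1, Ch25h, Pmp22, Saa3, Wfdc17 and the C1q genes in at least 2 cases each, double-mutant replicate 1 among them for all of these.

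**Figure D4:**
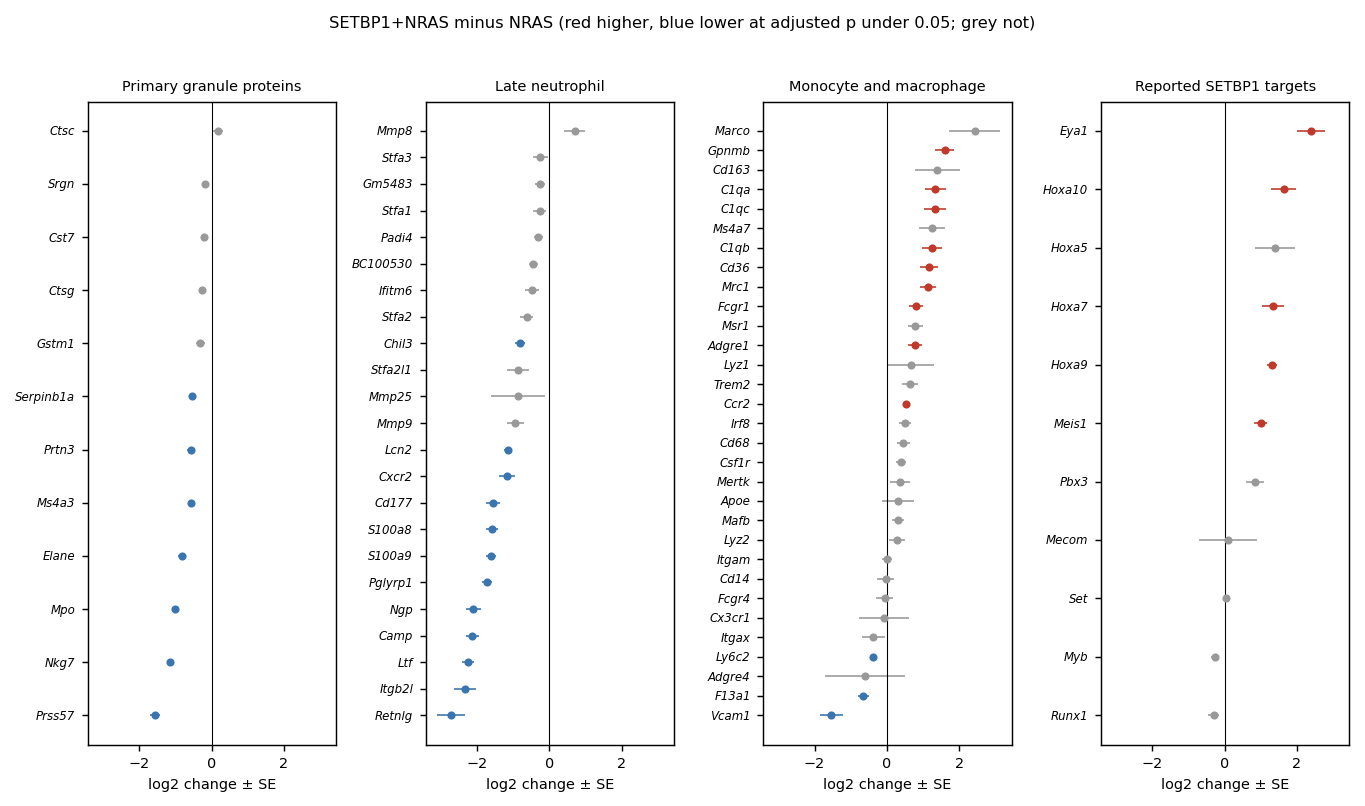
Log2 change, both mutants minus NRAS alone, with its SE, for each tested member of 4 gene lists; red genes were higher and blue genes lower at an adjusted p under 0.05, grey genes did not pass. Blue points fill the left side of the granule and late neutrophil panels. Red points in the SETBP1 target panel are Eya1, Hoxa7, Hoxa9, Hoxa10 and Meis1.

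Against SETBP1 alone the double-mutant cells differed in 4661 genes (42.4%), 2293 higher and 2368 lower (1720 and 2888 by library size alone). Dusp6 had 81.2, 70.3 and 83.6 normalised CPM with SETBP1 alone and 404, 376 and 418 with both (5.09-fold higher, adjusted p = 2.02e-10), and Fcer1a had 49, 42.2 and 66.1 and 3.78, 2.56 and 4.57 (14.4-fold lower, adjusted p = 5.97e-08). Hoxa9 did not pass in that comparison (log2 change -0.20, adjusted p = 0.227). The comparisons with empty vectors, NRAS alone and SETBP1 alone share the 3 double-mutant libraries, so their values are given side by side and their overlap is not counted.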

How the data were processed

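RNA-seq was run on 12 libraries of transduced mouse bone marrow cells, from total RNA and low-input cDNA synthesis per the labels. The submitters' processing notes name mm10, STAR and DESeq2. The counting tool, strand setting and treatment of multiply mapped reads are not given in the sources used here. The deposited values are raw counts per gene symbol. Counts were analysed with edgeR 4.0.16 in R 4.3.3: genes were kept by filterByExpr (minimum count 10, minimum total 15; 10993 of 19910, 5080 of which had no count in any library), scaled by TMM and fitted as 4 group means over all 12 libraries. The quasi-likelihood F test was two-sided, with Benjamini-Hochberg adjustment over all genes tested and a threshold of 0.05. CPM are shares of a library's reads and do not compare transcript levels between genes. Abundance, sums and rankings by CPM across genes therefore describe shares of reads only. SEs are of log2 changes and were computed as the absolute log2 change divided by the square root of the F statistic. Against a group with no read, folds are lower bounds at 3 counts per library, and group totals of 1 to 3 get an exact 95% interval of the ratio; both cover counting error only. The code was tested on simulated data. Alternatives were DESeq2 1.42.0, limma-voom 3.58.1, other scalings and filters, the 6 libraries alone, a replicate block, an adjusted p under 0.01 and each library left out. RefSeq promoters (GRCm38.p6) were searched for motifs.

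The comparison, the gene lists and the tests were chosen with earlier results of these data known, and no list was tested as a set. Genes were named by rule: the 2 introduced genes, the 15 largest log2 changes each way among genes whose groups were apart and that had a mean of 50 counts or more, the 10 largest CPM changes each way, and from each list up to 6 members past the threshold and 3 not; against a single mutant, the 10 largest each way. These were named after their values were seen: Adgre1, Braf, C1qa, C1qc, Ccl3, Ccr1, Cd34, Cd44, Cebpa, Cebpe, Clec12a, Cxcr4, Dgat1, Dusp6, Etv5, Fcer1g, Fli1, Fos, G6pdx, Gata2, Gdf15, Gfi1, Gp5, Hmgcs1, Hpgds, Hras, Id2, Ifitm3, Igf1, Il17ra, Il1rn, Inhba, Itga4, Junb, Ldha, Lmo2, Ly6c2, Map2k1, Mapk3, Mcpt8, Mrc1, Msr1, Myc, Nod1, Osm, Pbx3, Pdgfa, Pgd, Plau, Plaur, Rasa3, Runx2, Selp, Selplg, Set, Slc6a4, Timp3, Tkt, Tnf, Tnfsf13b and Vegfa.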

Additional observations from a re-analysis of the deposited data

How the results depend on the processing

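The count of genes called for both mutants against empty vectors (4462) stayed within 1.5 times under the alternatives run, from 3117 at an adjusted p under 0.01 to 6059 when only the 6 libraries compared were fitted; with 1 library left out it ran from 3658 (without empty replicate 3) to 5969 (without SETBP1 alone replicate 3). Against NRAS alone the count of 210 became 379 with DESeq2, 883 with only the 6 libraries compared and 86 at an adjusted p under 0.01, and with 1 library left out it ran from 93 to 836. Against SETBP1 alone the count of 4661 became 3083 with only the 6 libraries compared and 3043 at an adjusted p under 0.01, and ran from 3681 to 5166 with 1 library left out. Fits with 1 library left out leave a group of 2, whose spread is estimated with the other groups.

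Whether same-numbered replicates were prepared together is not given in the sources used here. Same-numbered empty-vector and double-mutant libraries deviated from their group means with correlations of -0.02, -0.03 and 0.02. Differently numbered ones had correlations from -0.04 to 0.05. These values show no pairing by number but cannot exclude it. With the replicate number as a block, 4276, 164 and 4404 genes were called against empty vectors, NRAS alone and SETBP1 alone.

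No gene named in the text changed direction against empty vectors or NRAS alone where it was called there, under the alternatives run. Genes named against SETBP1 alone were not refitted under them. Some list medians changed sign: DNA replication to -0.0599 by library size alone and -0.0014 with upper-quartile scaling, the citric acid cycle to -0.0869 and -0.0282 with these, and to -0.0127 at a mean count of at least 50, NRF2 to -0.0573 by library size alone, iron and heme transport to -0.0113 by library size alone and -0.0047 at that minimum, B-lymphoid to -1.38 at that minimum, and the dendritic cell, stromal and scavenger lists to -0.396, -0.647 and 0.478 with no filter on low counts. With 1 library left out, the scavenger median ran from -0.251 to 0.487 (without double-mutant replicate 3 and 2) and the p53 median from -0.091 to 0.0955 (without empty replicate 1 and double-mutant replicate 3). Medians near 0 of the lysosome, pattern recognition and respiratory chain lists also changed sign under some alternatives, by less than the spread between replicates. The cause was not tested. Low counts limit the lymphoid, erythroid and stromal lists.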

Other observations

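Further gene groups were compared between empty-vector and double-mutant cells, beside shares over all genes tested of 20.8% that rose and 19.8% that fell. Of 20 targets of the tumour suppressor p53 tested, 8 rose and 7 fell (median log2 change -0.08, of no stable sign with 1 library left out), and by library size alone 3 and 8 did, with upper-quartile scaling 3 and 7. Plk2, a polo-like kinase, had 10.3, 12.1 and 9.04 normalised CPM with empty vectors and 109, 98.4 and 89.6 with both mutants (9.44-fold higher, edgeR adjusted p = 6.61e-08), and Mdm2, which encodes the ubiquitin ligase of p53, had 124, 133 and 133 and 335, 342 and 324 (2.57-fold higher). Cdkn1a rose 2.04-fold. The death receptor gene Fas had 21.4, 18.4 and 19.3 and 9.93, 8.96 and 10.4 (2.02-fold lower) and Trp53inp1 had 27.4, 25.4 and 28.7 and 6.99, 4.48 and 8.88 (4.01-fold lower). Groups did not overlap in these genes. Fc receptors and their adaptors rose in 4 and fell in 6 of 13 cases (median -0.19). Trem1, an amplifier of myeloid inflammation, rose from 19.5, 22.6 and 22.9 to 84.6, 81.3 and 94.7. The shared gamma chain Fcer1g rose by 0.51 on the log2 scale (not without empty replicate 1), in contrast to the IgE receptor alpha chain gene Fcer1a above.

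Scavenger and acute-phase genes split, 4 higher and 5 lower of 11 (median -0.04, of no stable sign with 1 library left out). Haptoglobin (Hp) fell from 511, 541 and 453 to 105, 95 and 111 normalised CPM (4.84-fold lower, adjusted p = 8.51e-08), while the pentraxin Ptx3 rose from 0.332, 1.14 and 0.27 to 3.08, 1.92 and 9.28, though not without double-mutant replicate 3. Among lysosomal genes 7 rose and 8 fell of 36 (median -0.01), shares near those over all genes. The cathepsin genes parted: Ctsl rose from 156, 171 and 169 to 1033, 973 and 959 (5.98-fold higher), Ctsb and Ctsd rose 1.92-fold and 1.89-fold, and Ctsh fell from 297, 312 and 236 to 95, 91.4 and 83.3 (3.14-fold lower). Psap, encoding the precursor of the saposins, fell 1.97-fold. Of 13 genes of lipid efflux 5 fell and 1 rose (median -0.25), Apoe most. Of 27 genes of the citric acid cycle 9 rose and 3 fell, with a median of 0.04 that turned to -0.09 by library size alone and -0.03 with upper-quartile scaling, where 4 and 9 and 6 and 7 rose and fell. Idh1, the cytosolic isocitrate dehydrogenase, fell from 479, 498 and 479 to 213, 205 and 219.6. Of 12 genes of iron and heme transport 3 rose and 2 fell (median 0.11, or -0.01 by library size alone), near the shares over all genes.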
